A study of Mus musculus with 4 samples.

Results

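The genes described here are 10 immediate-early and anti-proliferative genes of mouse: Zfp36, Zfp36l1 and Zfp36l2, Btg1, Btg2, Tob1 and Tob2, and Ier2, Ier3 and Ier5. They were chosen by name, with earlier results of these data known, and all 10 had a row among the 20089 genes of the deposited tables. Counts of members beside shares of all genes are therefore descriptions only. The samples were cultures of HT22, a permanent cell line derived from mouse hippocampal neurons; the labels give the strain as C57BL/6. All cells had been infected with a lentivirus, which either targeted Neat1, a nuclear long non-coding RNA of paraspeckles, or was a control negative virus. Each kind was grown either in DMEM/F12 medium with 10% FBS (normal culture) or under oxygen-glucose deprivation (OGD), an ischaemia model; the labels used here give no duration. There was 1 library for each of the 4 groups. No difference below therefore has a replicate check. Intervals are 95% intervals that cover counting error only, and the comparisons below give no p-value other than those of the authors' deposited tables. Every comparison uses libraries that another comparison also uses.

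Zfp36 (tristetraprolin) and its relatives are zinc-finger proteins that bind AU-rich elements in the 3′ untranslated regions of mRNAs and recruit the CCR4-NOT deadenylase complex, which shortens the poly(A) tail and starts decay. Btg and Tob proteins also bind the deadenylase subunits and restrain proliferation; Btg2 is in addition a well-known p53 target. The Ier genes are transcribed within minutes of serum, growth factor or stress signals, and many of them need no new protein synthesis for it. In neurons, members of all these families respond to activity and injury.

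Levels are counts scaled to library depth (CPM, with the trimmed mean of M-values factors, TMM), and ratios are log2 ratios of CPM with 0.5 CPM added. The libraries held 18596774 reads (control virus in normal culture), 20764430 (Neat1 virus, called knockdown, in normal culture), 17232866 (control virus under OGD) and 19066951 (knockdown under OGD). Neat1 stood at 193, 121, 74.4 and 42.1 CPM in that order, 1.60-fold lower (1.52 to 1.68) with the Neat1 virus in normal culture and 1.77-fold lower (1.61 to 1.93) under OGD. The control library in normal culture stood apart from the rest. Its 16 neuronal markers summed to 2331 CPM, against 34.9, 86.0 and 235 CPM in the other 3 libraries in the order above, and none of the 16 was at 0 in any library. By these markers the control library in normal culture held far more neuronal RNA than the other 3. Another 16 markers, of glia, vessels and blood, summed to 296, 19.4, 14.4 and 104 CPM. Of these, Olig2, P2ry12 and C1qa were at 0 in the knockdown library in normal culture, and Olig2, Gfap, Aqp4, Cldn5 and Cx3cr1 in the control OGD library. Both sums were thus highest in the control library in normal culture. Where this marker RNA came from was not tested. Numbers of cells of a kind and RNA per cell cannot be told apart in such bulk libraries.

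The AU-rich sites of the genes themselves are shown first, because Zfp36-family proteins are known to act on such sites. The search covered the transcript strand of the 3′ untranslated regions in GENCODE M21 (build GRCm38). The nonamer TTATTTATT was found in 3 of the 10 genes, which were the 3 Zfp36 genes, and in 7.48% of the 12935 genes searched. The shorter TATTTAT, which lies inside the nonamer, was found in 6 of 10, and in 28.2% of all genes. Members have the longer regions, with a median of 1828.5 bases against 992 over all genes. Within the first 500 bases, TATTTAT occurred in 2 of 10 (Btg2 and Ier3) against 11.8%, and the nonamer in 0 of 10 against 2.64%. Each site is printed with 10 bases on either side and the match in capitals; the first 3 are the nonamers and the last 2 the first TATTTAT of Btg2 and of Ier3, the only members with one that early.
Zfp36, chr7:28376951-28376979, minus strand: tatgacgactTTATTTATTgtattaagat
Zfp36l1, chr12:80108167-80108195, minus strand: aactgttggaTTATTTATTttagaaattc
Zfp36l2, chr17:84184914-84184942, minus strand: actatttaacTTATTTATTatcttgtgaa
Btg2, chr1:134077250-134077276, minus strand: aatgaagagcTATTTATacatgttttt
Ier3, chr17:35822482-35822508, plus strand: gtctaattaaTATTTATgtatttatgt
Ier3 held 4 copies of TATTTAT within its 613 bases, the closest pair 8 bases apart, at positions 182 and 190. Zfp36, Zfp36l1 and Zfp36l2 held 3 each, Btg2 and Tob2 1 each, and Btg1, Tob1, Ier2 and Ier5 none. A match of letters is a description and shows no binding.

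Promoters were read from a RefSeq table (GRCm38.p6), which matched 8 of the 10 genes, leaving out Zfp36l2 and Ier2. Both strands of the window from 250 bases before to 50 after the start were searched for 6 motifs. A CArG box (CC, 6 bases of A or T, GG), the letters that serum response factor (Srf) reads, was found in Zfp36 only, at -58 to -49, and in 1.63% of 32851 promoters. TGACGTCA, the full cAMP response element, was found in Btg2 only, at -166 to -159, and in 1.79% of promoters. The core ACGTG, shared by hypoxia response elements and other E-box-like sites, occurred in Ier3, Tob1 and Tob2 and in 19.6% of promoters. TGAGTCA, the heat shock element and TGATGCAA occurred in none of the 8, against 5.20%, 0.603% and 0.895% of all. The 250 bases before the start are printed for 3 genes, with the match in capitals: Zfp36 and Btg2, which carry the rarer motifs and had the highest knockdown ratios under OGD, and Ier3, the most abundant member per length.
Zfp36, chr7:28379229-28379478, minus strand: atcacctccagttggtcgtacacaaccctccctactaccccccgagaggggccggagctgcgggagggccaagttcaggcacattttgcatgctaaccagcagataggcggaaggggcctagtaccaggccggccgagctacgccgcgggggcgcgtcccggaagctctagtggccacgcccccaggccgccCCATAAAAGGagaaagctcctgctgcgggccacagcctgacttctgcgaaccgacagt
Btg2, chr1:134079156-134079405, minus strand: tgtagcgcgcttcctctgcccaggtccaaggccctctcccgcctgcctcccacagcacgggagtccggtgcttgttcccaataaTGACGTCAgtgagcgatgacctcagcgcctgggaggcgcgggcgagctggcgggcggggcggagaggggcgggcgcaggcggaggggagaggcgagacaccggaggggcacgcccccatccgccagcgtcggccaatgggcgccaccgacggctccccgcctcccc
Ier3, chr17:35821463-35821712, plus strand: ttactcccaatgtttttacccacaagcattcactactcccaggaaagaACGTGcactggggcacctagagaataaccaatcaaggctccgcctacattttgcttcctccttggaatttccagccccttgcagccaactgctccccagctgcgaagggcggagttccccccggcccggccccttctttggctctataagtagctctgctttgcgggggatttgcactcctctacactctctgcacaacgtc

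Read per length, Ier3 and Ier2 were the most abundant and Btg2 the least abundant of the 10. On the scale of fragments scaled for transcript length and library depth (FPKM), Ier3 stood at 159, 290.1, 198 and 435 in the 4 libraries, in the order given for the depths and used for every series of 4 values here. Ier2 followed at 127, 173, 135 and 279 FPKM. These 2 led the order in all 4 libraries. Btg2 closed it in all 4, at 3.36, 4.11, 3.63 and 17.6 FPKM. Zfp36 took different places in the order: in the knockdown OGD library Ier3 and Ier2 alone stood above it, while 4 or 5 members did in the other libraries, at 26.5, 23.2, 25.5 and 95.9 FPKM. Zfp36l2 held 43.4, 30.6, 45.4 and 46.7 FPKM, above Zfp36 in all but the last library. With 1 library a group, no spread is known for neighbours in this order. Tob1 and Tob2 lay close in each library, between 10.6 and 23.5 FPKM.

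**Figure D1:**
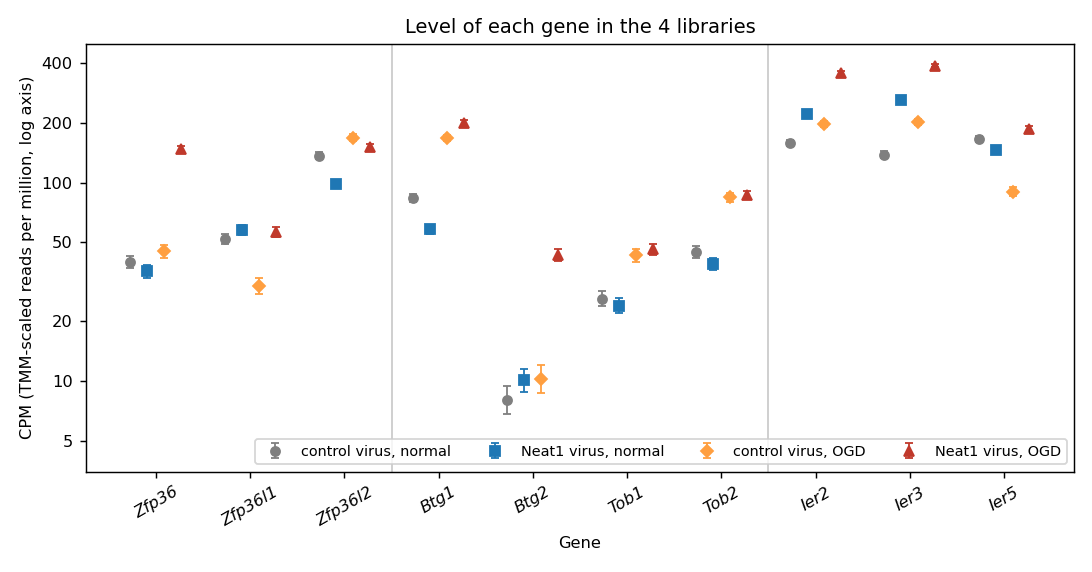
Level of each gene in the 4 libraries, in TMM-scaled CPM on a log axis; each point is 1 library and each bar the exact 95% Poisson interval, which covers counting error only. The knockdown OGD library is the highest for 8 of the 10 genes. Its interval lies above those of the other 3 for Zfp36, Btg1, Btg2, Ier2, Ier3 and Ier5, with the widest gaps for Btg2 and Zfp36.

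The knockdown OGD library held the highest level of 8 of the 10 genes, all but Zfp36l1 and Zfp36l2, whereas it was the highest library for 23.4% of all 15086 genes that reached 20 reads anywhere. None of the 10 was lowest there, a count for which the share of all genes was not computed. Summed over the 10, the libraries held 853, 951, 1041 and 1663 CPM. The library that stood apart by its neuronal markers, control in normal culture, was not the highest for any member. It was the highest for 29.0% of the 15086 genes. The knockdown OGD library had the next highest marker sums, 235 CPM for neuronal markers and 104 CPM for those of glia, vessels and blood. The part of these markers in the levels of the 10 genes was not tested.

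In normal culture, the Neat1 virus went with small differences in these genes. None of the 10 was at least 2-fold higher or lower, against 6.25% of 14554 genes higher and 16.3% lower. Their median log2 ratio was -0.13, and that of all genes -0.026. Ier3, which encodes a short-lived regulator of survival and signalling, differed most. It measured 138 CPM in the control and 261 CPM in the knockdown library, 1.88-fold higher (1.80 to 1.97). Ier2, a nuclear protein with roles in transcription and cell motility, was 1.40-fold higher (1.34 to 1.46), at 158 and 221 CPM. On the other side stood Btg1 at 83.5 and 58.2 CPM and Zfp36l2 at 137 and 98.6 CPM, log2 ratios of -0.52 and -0.47. Zfp36 was nearly level, with 39.7 and 35.7 CPM and a log2 ratio of -0.15. In the authors' deposited table, Ier3 was the only member marked Up, a mark that means an unadjusted p under 0.05 (here 0.00143, adjusted p 0.0541); that table marked 0.328% of its genes Up and 4.69% Down. The neuronal markers differed far more: 15 of 16 were at least 2-fold lower with the Neat1 virus, with a median log2 ratio of -5.55. Among the markers of glia, vessels and blood, 10 held enough reads, and 9 of these were at least 2-fold lower (median -3.95). The part of both marker lists in the ratios of the 10 genes was not tested.

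Under OGD, the same virus went with higher levels of a subset of the 10. Btg2, Zfp36 and Ier5 were at least 2-fold higher and none was 2-fold lower, against 10.7% of 13388 genes higher and 4.23% lower. Of the 10 ratios, 9 were above 0. The median was 0.86, against -0.00071 for all genes. The 3 that passed the size rule belong to 3 different families.

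Btg2 (ENSMUSG00000020423, GRCm38 chromosome 1, 134075170 to 134079120, minus strand, protein coding), whose promoter holds the TGACGTCA shown above, had the highest ratio of the 10. Its level was 8.06, 10.1, 10.3 and 43.3 CPM in the 4 libraries, from 158, 217, 158 and 847 reads. The first 3 libraries lay close together and the knockdown OGD library far above them. The knockdown OGD library was 4.21-fold higher (3.55 to 5.02) than the control OGD library, and 310 of the 13388 genes had a log2 ratio at or above its 2.02. In the authors' deposited table Btg2 was marked Up with an adjusted p of 0.417.

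Zfp36 (ENSMUSG00000044786, chromosome 7, 28376784 to 28380253, minus strand) had the same shape at a higher level. It measured 39.7, 35.7, 45.0 and 148 CPM, from 779, 767, 693 and 2891 reads. The knockdown OGD library was again alone above the rest, 3.28-fold higher (3.02 to 3.57) than the control OGD library. Its log2 ratio of 1.70 was met or exceeded by 566 genes. The authors' deposited table marked it Up with an adjusted p of 0.0271. The neuronal markers also differed here, with 15 of 16 at least 2-fold higher with the Neat1 virus (median log2 ratio 2.15) and Tubb3 lower. Of the 16 markers of glia, vessels and blood, 8 held enough reads, and all 8 were at least 2-fold higher (median 2.21). The part of both marker lists in the ratios of Zfp36 and Btg2 was not tested.

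Ier5 (chromosome 1, 155096361 to 155099636, minus strand), which binds heat shock factor 1 (Hsf1) and promotes its activity, differed in another way. It stood at 165, 145, 90.2 and 186 CPM, so that the control OGD library was low and the other 3 lay between 145 and 186 CPM. The knockdown OGD library was 2.06-fold higher (1.94 to 2.20) than the control OGD library. Against the knockdown library in normal culture it was 1.28-fold higher (1.22 to 1.34). Zfp36l1 (chromosome 12, 80107754 to 80113013, minus strand) had the same form, with 52.1, 57.9, 30.2 and 56.2 CPM. Its level was 1.86-fold higher (1.67 to 2.08) with the Neat1 virus under OGD. A lincRNA on the opposite strand, Gm26669, overlaps Zfp36l1 and held up to 218 reads in a library; whether counting used strand is not given in the sources used here.

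Ier2 (chromosome 8, 84661331 to 84662852, minus strand) and Ier3 (chromosome 17, 35821684 to 35822923, plus strand) were higher with the Neat1 virus in both cultures. Under OGD, Ier2 measured 198 and 356 CPM, 1.79-fold higher (1.72 to 1.87). Ier3 measured 203 and 389 CPM, 1.92-fold higher (1.84 to 2.00). For Ier3 this is nearly the same fold as in normal culture. The other 4 genes stood near level under OGD: Btg1 had a log2 ratio of 0.26, Tob1 0.10, Tob2 0.04 and Zfp36l2 -0.16. Ratios of Ier2, Ier3 and Zfp36l1 lay just under the 2-fold rule and Ier5 just above it. Scaled by total reads instead, which moves the median of all genes by 0.19, Btg2, Zfp36, Ier5, Zfp36l1, Ier2 and Ier3 all passed it. Of the 13388 genes, 1788 were then at least 2-fold higher in place of 1437. The authors' deposited table marked 5 of the 10 Up (Zfp36, Btg2, Ier2, Ier3 and Ier5), and none Down, against 0.746% and 1.26% of its genes. These marks rest on unadjusted p. Of the 5, only Zfp36 had an adjusted p under 0.05, while Ier3 had 0.876 and Ier5 0.934.

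**Figure D2:**
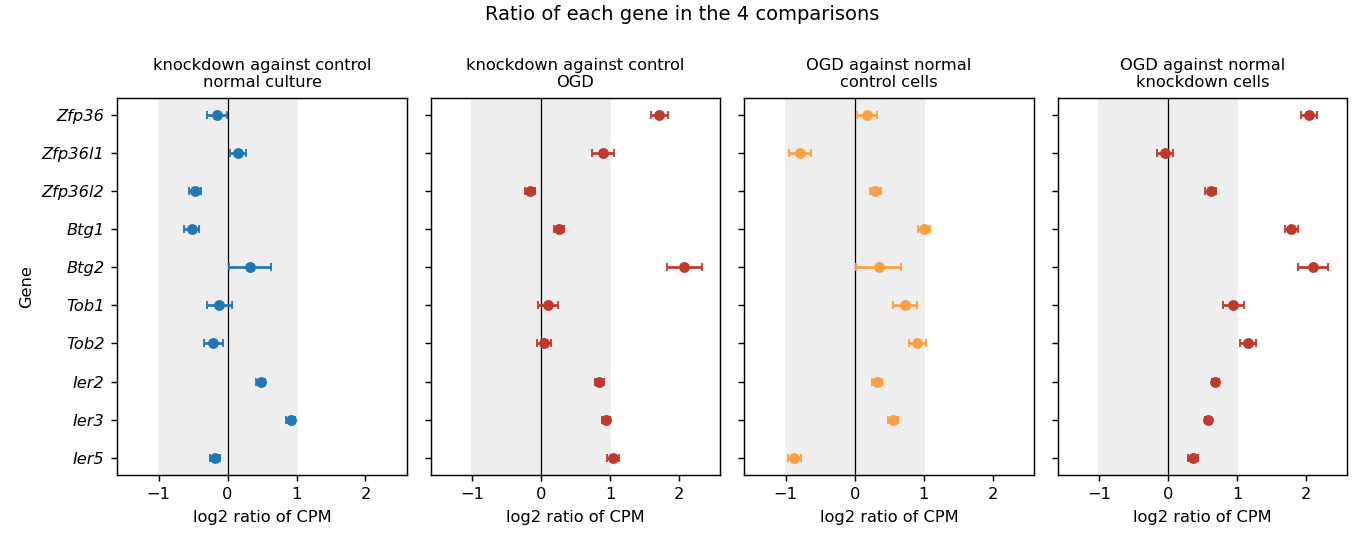
Log2 of the fold of each of the 10 genes in the 4 comparisons, 1 panel each and without the added 0.5 CPM, with exact 95% counting intervals as bars; the grey band spans less than 2-fold. Btg2 (4.21-fold) and Zfp36 (3.28-fold) stand apart from the other 8 in the knockdown comparison under OGD, and Ier3 lies near 0.9 in both knockdown comparisons.

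The ratio of Neat1 virus to control virus was larger under OGD than in normal culture for some genes and much the same for others. As a difference of log2 ratios, OGD minus normal, Zfp36 had 1.85 (counting SE 0.095) and Btg2 1.71 (0.196). Ier5 followed at 1.23 (0.058). These 3 exceeded 1, against 20.8% of 15086 genes above 1 and 8.92% below -1. Btg1, an inhibitor of proliferation abundant in resting cells, came next at 0.77 and Zfp36l1 at 0.73. Ier2, Zfp36l2, Tob2 and Tob1 lay between 0.21 and 0.36. Ier3 had 0.03, with an interval of -0.06 to 0.11. Since each group held 1 library, none of these differences was tested.

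**Figure D3:**
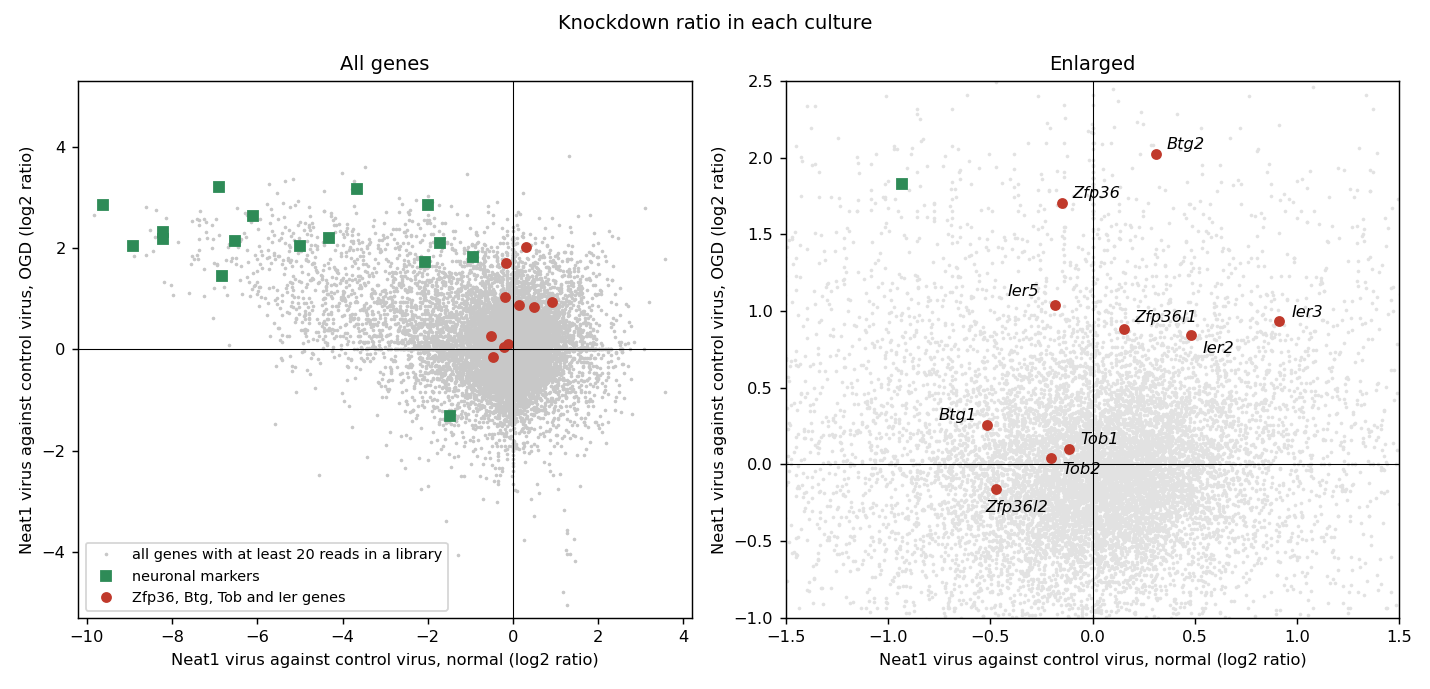
Knockdown ratio in normal culture (x axis) against that under OGD (y axis), both log2, for 15086 genes in grey, 16 neuronal markers in green and the 10 genes in red; the right panel enlarges the centre. The 10 genes lie near 0 on the x axis, between -0.52 and 0.91, and reach 2.02 on the y axis, while most of the neuronal markers lie far to the left.

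OGD against normal culture, in cells with the control virus, went with differences of under 2-fold in 9 of the 10 genes. Btg1 (chromosome 10, 96617006 to 96622809, plus strand) was the only member at least 2-fold higher, 2.01-fold (1.89 to 2.14), at 83.5 CPM in normal culture and 168 CPM under OGD. It lay at the size rule itself, and none was 2-fold lower, against 9.36% of 14101 genes higher and 22.2% lower. Tob2 (chromosome 15, 81848272 to 81858796, minus strand) measured 44.8 and 84.2 CPM, 1.88-fold higher (1.73 to 2.05). Tob1 (chromosome 11, 94211454 to 94215495, plus strand) measured 26.0 and 43.2 CPM, 1.66-fold higher (1.48 to 1.87). Tob1 and Tob2 encode anti-proliferative adaptors between poly(A)-binding protein and the deadenylases. Zfp36 was near level, with a log2 ratio of 0.18, which became -0.06 when scaled by total reads. Ier5 was 1.83-fold lower (1.72 to 1.95), and Zfp36l1 1.72-fold lower (1.54 to 1.93). The authors' deposited table marked 0 of the 10, and 1.13% of its genes Up and 3.18% Down. In this comparison 13 of the 16 neuronal markers were at least 2-fold lower. Among the markers of glia, vessels and blood, 10 held enough reads, and 8 of these were at least 2-fold lower. The part of both marker lists was not tested.

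In cells with the Neat1 virus, the same comparison gave 4 genes at least 2-fold higher under OGD and none lower, against 19.1% of 14071 genes higher and 16.9% lower. The control library in normal culture does not enter this comparison. Btg2 was 4.28-fold higher (3.68 to 4.99) and Zfp36 4.14-fold higher (3.82 to 4.48). Btg1 was 3.44-fold higher (3.23 to 3.67), at 58.2 and 200.4 CPM. Tob2 was 2.23-fold higher (2.05 to 2.43), and Tob1 lay just under the rule at 1.93-fold (1.73 to 2.15). Zfp36l2 (chromosome 17, 84183931 to 84187947, minus strand), a relative of Zfp36 known for roles in blood cell development, was 1.53-fold higher, Ier2 1.61-fold and Ier3 1.49-fold. Ier5 was 1.28-fold higher, where it had been lower in control cells. Zfp36l1 was level, with a log2 ratio of -0.04. Zfp36 and Btg1 were marked Up in the authors' deposited table and none Down, against 1.18% and 0.663% of its genes. Neither had an adjusted p under 0.05. Here 15 of 16 neuronal markers were at least 2-fold higher, with a median log2 ratio of 3.15. Among the markers of glia, vessels and blood, 8 held enough reads, and 7 of these were at least 2-fold higher (median 2.02). Slc1a3 was lower (-0.41).

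The relatives of the 10 were not higher with the Neat1 virus under OGD. Btg3, a family member of Btg1 and Btg2, measured 21.01, 29.2, 44.3 and 37.9 CPM. Ier5l, the paralogue of Ier5, measured 120, 123, 227 and 142 CPM, highest in the control OGD library, where Ier5 was lowest. Ier3ip1, an endoplasmic reticulum protein related to Ier3 by interaction and not by sequence, measured 23.4, 31.0, 28.0 and 16.9 CPM. Their knockdown log2 ratios under OGD were -0.22, -0.67 and -0.71. Zfp36l3 held 2, 0, 6 and 0 reads, too few for a ratio. Btg4 was without a row in the tables.

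The deadenylase and decay genes with which these proteins work were read against the same shares of all genes, 10.7% higher and 4.23% lower under OGD and 6.25% and 16.3% in normal culture. Of 12 CCR4-NOT genes, 0 passed 2-fold in either knockdown comparison. Their median under OGD was -0.15, but 0.05 when scaled by total reads. Across OGD, Cnot6, a deadenylase subunit, was lower in both kinds of cell, with log2 ratios of -1.11 and -1.02. Cnot10 had a log2 ratio of 1.00 in control cells, just under the rule, and 0.40 in knockdown cells. Of 14 genes of tail trimming and decapping, 0 passed under OGD with the Neat1 virus and 1 was lower in normal culture, the decapping cofactor Dcp1b (-1.57). Values just under the rule were among them: Parn, a poly(A)-specific ribonuclease, was 1.91-fold higher with the Neat1 virus under OGD. It stood at 17.4, 13.3, 26.3 and 50.2 CPM, highest in the knockdown OGD library like Zfp36 and Btg2. Patl1, a decapping activator, was higher under OGD in both kinds of cell, with log2 ratios of 1.67 and 1.63. Lsm1, of the decay-linked Lsm ring, had -0.26 and -1.19.

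Of 11 other proteins that bind AU-rich or related elements, 0 passed with the Neat1 virus in either culture. Zc3h12a, the RNase Regnase-1, came nearest, at -0.97 under OGD with the 0.5 CPM added; without it, the levels differ by just over 2-fold. It measured 28.7, 38.3, 11.1 and 5.41 CPM, lowest where Zfp36 was highest. The roquin genes Rc3h1 and Rc3h2 had log2 ratios of 1.12 and 1.17 for OGD in control cells, and 1.23 and 0.58 in knockdown cells. Of 15 genes for Srf, its partners and the p38 and ERK kinases, 0 passed with the Neat1 virus under OGD and 1 did in normal culture (Mrtfb, 1.19). Srf itself, which reads CArG boxes, stood at 135, 107, 234 and 271 CPM. Its log2 ratio for OGD was 0.79 in control and 1.33 in knockdown cells. Map2k6, a kinase upstream of p38, had 1.88 and 1.75, and Map2k3, of the same tier, -1.10 and -1.41. Elk3, a ternary complex factor, had -1.43 and -1.67.

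Among 18 mRNAs known as targets of Zfp36, 17 had a row. Against the control OGD library, 14 could be read, of which 1 was at least 2-fold higher (Nfkbiz, 1.46) and 1 lower (Ccnd1, -1.40). The shares of all genes were 10.7% and 4.23%, so 1 of 14 each way is near what all genes gave. The median of the 14 was 0.23. Ccnd1, which encodes cyclin D1, measured 48.1, 57.4, 9.88 and 3.42 CPM. Cxcl1, a chemokine, measured 167, 122, 14.9 and 8.12 CPM. Both were lowest in the library where Zfp36 was highest. Pim1, a survival kinase, measured 12.4, 20.7, 109 and 169 CPM, and the phosphatase gene Dusp1 37.2, 16.1, 109 and 157 CPM. Both of these were highest there. Across OGD in control cells, the log2 ratios were already -2.23 (Ccnd1), -3.44 (Cxcl1), 3.09 (Pim1) and 1.53 (Dusp1). For OGD in control cells, 7 of 15 were higher and 5 lower, where Zfp36 was near level. The shares of all genes were 9.36% and 22.2%. In knockdown cells 5 of 15 were higher and 5 lower, against 19.1% and 16.9% of all genes.

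A list of 9 genes, of Hsf1 and its heat shock targets, was read beside Ier5. For OGD, 5 were at least 2-fold higher and 0 lower in both kinds of cell. Of all genes, 9.36% were higher and 22.2% lower in control cells, and 19.1% and 16.9% in knockdown cells. The medians of the 9 were 1.19 in control cells, where Ier5 was 1.83-fold lower, and 1.35 in knockdown cells. Hspa1b measured 49.8, 10.99, 360.0 and 678 CPM and Hspa1a 17.5, 6.01, 112 and 233 CPM. Hspa1a and Hspa1b are near-identical copies, so the split of reads between them is uncertain. Dnajb1, a co-chaperone, measured 80.5, 91.2, 389 and 480.3 CPM. With the Neat1 virus under OGD, only Hspa1a passed, at 1.06, against 10.7% of all genes higher and 4.23% lower, while Ier5 had 1.04.

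**Figure D4:**
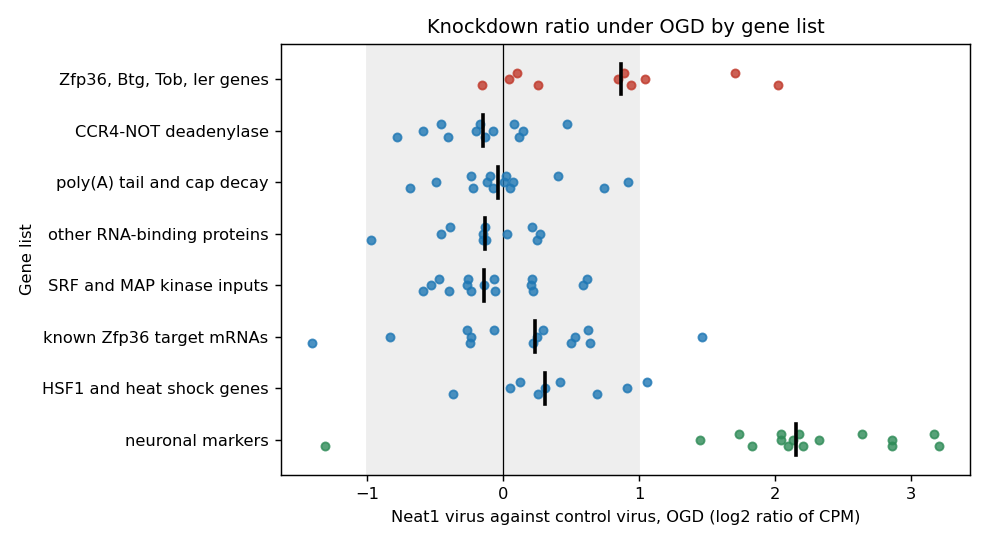
Log2 ratios (x axis) of the genes of 8 lists in the knockdown comparison under OGD; each point is 1 gene that reached 20 reads in the higher of its libraries, each vertical bar the list's median, and the grey band less than 2-fold. Points are spread vertically only to part them. The 10 genes have a median of 0.86 in the knockdown comparison under OGD, and the CCR4-NOT list one of -0.15.

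Genes with the most similar pattern were sought among the 10799 genes whose highest library held 100 reads or more, by the distance between log2 levels centred over the 4 libraries. For Zfp36 these were Napb (distance 0.25) and Chn1 (0.277), and only 1 gene lay within 0.25. For Btg2 they were Chil1 (0.342) and Zfp36 itself (0.406), and no gene lay within 0.25. The radius is fixed and does not scale with the range of a gene's levels, 5.37-fold for Btg2 and 1.93-fold for Tob1. These counts therefore do not rank the shapes by how unusual they are. The floor was asked of the highest library only, and Napb measured 1.38, 1.12, 1.89 and 7.71 CPM. At the other end, Tob1 had 306 genes within 0.25, Zfp36l2 232 and Tob2 180. Nearest to Tob1 were Tnpo2 (0.029) and Ift46 (0.041), to Zfp36l2 Tnpo1 (0.029) and Prpf38b (0.055), and to Tob2 Cc2d1a (0.035) and Rgl3 (0.043). Btg1 had Mbd6 (0.080) and Mau2 (0.091), and Zfp36l1 had Ccdc88a (0.060) and Slit2 (0.075). Ier2 had Zfp180 (0.047) and Wdr81 (0.117), Ier3 had Prg4 (0.135) and Bclaf3 (0.143), and Ier5 had Smim15 (0.081) and Col27a1 (0.167). Genes within 0.25 of these 5 numbered between 14 for Ier3 and 51 for Btg1. With 4 libraries, likeness of this kind is a description only.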

How the data were processed

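RNA-seq libraries from HT22 cells, 1 in each of 4 groups (control or Neat1 virus, normal culture or OGD), were analysed; groups follow the labels. Reads were mapped with TopHat2 to mm10, per the submitters' processing notes. The 4 deposited tables each compare 2 libraries. Per the file headers, the authors deposited a mean signal per library (counts divided by a size factor), a fold ratio, a log2 fold change and a p-value with an adjusted p. The authors also deposited 2 unlabelled columns that were read from their values as FPKM. Every signal value came out as a whole number of reads (100% at a tolerance of 1e-06 of a read), and those read counts were used; a count test has no replicates here. Of 20089 identifiers, 19950 matched GENCODE M21 (GRCm38).

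Reads were scaled with TMM (edgeR 4.0.16, R 4.3.3) to CPM; log2 ratios had 0.5 CPM added, while fold intervals are exact conditional binomial ones without it. Genes were read where either library held 20 reads or more, and a 2-fold difference was the size rule. Tables and intervals were made with pandas 2.3.3, scipy 1.17.1 and numpy 2.4.6 under Python 3.11.15. The size rule and intervals were tested on simulated data. Alternatives were total counts, DESeq2 1.42.0 size factors, other added CPM, other floors, FPKM and, chosen after seeing the data, an additive edgeR fit. The members and lists were chosen with earlier results of these data known. Named genes are all members and relatives, up to 4 per list with the largest ratios over the 4 comparisons, and the 2 nearest patterns per member; Nfkbiz, Mrtfb, Tubb3 and markers at 0 were named after their values were seen. The marks of the authors' tables were compared with their p-values and matched an unadjusted p under 0.05.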

Additional observations from a re-analysis of the deposited data

Results flagged for a closer look

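Zfp36 had log2 ratios of opposite signs in the 2 knockdown comparisons, -0.15 in normal culture and 1.70 under OGD, a difference of 1.85. In normal culture it was nearly level, and its counting interval, -0.300 to -0.008, came close to 0. For Btg1 the ratios were -0.52 and 0.26, a difference of 0.77. For Ier5 they were -0.18 and 1.04, a difference of 1.23. Read the other way, the OGD ratio of Ier5 was -0.87 in control cells and 0.36 in knockdown cells, which is the same difference of 1.23 from the same 4 libraries. These were picked out because the ratios have opposite signs in the 2 settings and both counting intervals leave out 0; Tob1 and Tob2 also had opposite signs in the knockdown comparisons, with intervals under OGD that include 0. With 1 library a group the differences were not tested.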

How the results depend on the processing

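The precision is set by 1 library a group. Leaving out a library ends any comparison that uses it. No paired analysis was possible because each group held 1 library. Counting error is small at these depths, and the spread between cultures is unknown. Of 300 alternative values for the 40 member log2 ratios, 264 lay within the counting interval of the main value and 36 outside it. Another sign was given 5 times: Zfp36l2 with the Neat1 virus under OGD (0.04 with total counts and with FPKM), Zfp36 for OGD in control cells (-0.06 with both) and Zfp36l1 for OGD in knockdown cells (0.03 with FPKM).

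Total counts move the median of all genes by 0.19 (Neat1 virus under OGD) and -0.23 (OGD in control cells). With them, 6 members were 2-fold higher with the Neat1 virus under OGD in place of 3. Of the 13388 genes, 1788 were then higher in place of 1437. For OGD in control cells 0 members were higher in place of 1, and 2 were lower in place of 0. Of the 14101 genes, 866 were higher in place of 1320 and 3808 lower in place of 3125. Among genes past 2-fold, the share that was higher went from 71.7% to 82.3% and from 29.7% to 18.5% in these comparisons. With FPKM the members numbered 6 higher with the Neat1 virus under OGD, where 2067 of all genes were higher. For OGD in control cells 0 members were higher and 1 lower, against 1003 and 3992 of all genes. Of genes past 2-fold there, 20.1% were then higher. With FPKM 5 members had a difference of ratios past 1 in place of 3, and the share of all genes was not computed. With 2 CPM added, Btg1 fell below the rule for OGD in control cells, leaving 0 members. Genes higher with the Neat1 virus in normal culture then numbered 283 in place of 910 (15.1% of those past 2-fold in place of 27.7%). Those higher and lower under OGD numbered 535 and 263 in place of 1437 and 566, and those lower for OGD in knockdown cells 1542 in place of 2375. With a floor of 100 reads these became 364 higher and 1297 lower (main 2374) in normal culture and 456 and 267 under OGD. The same floor left 1923 lower for OGD in control cells in place of 3125 and 1635 higher in knockdown cells in place of 2682. With no floor, 901 genes were lower with the Neat1 virus under OGD. TMM factors computed without the control library in normal culture left the member counts of 3 and 4 as they were. An additive edgeR fit over all 4 libraries, added after seeing the data, has 1 residual degree of freedom; it called 0 of 15086 genes for either factor, with 355 (virus) and 3241 (culture) at an unadjusted p under 0.05.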
